A study of Mus musculus with 4 samples.

Results

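Fgf1 and Arhgap26 are neighbouring genes on mouse chromosome 18, and their transcript levels were followed here across the neuron types and glia of the adult cerebral cortex by single-nucleus RNA sequencing (snRNA-seq). The pair was chosen by the contrast between genotypes: both genes were lower in neurons of mice lacking the creatine transporter in these same libraries. The differences between genotypes given for them are therefore a description with no test. The deposited tables hold 21933 gene records, and 3 of them carry the names of this pair, since 2 separate gene identifiers are called Arhgap26. Each library held nuclei of the right cerebral cortex of 1 male mouse at postnatal day 100. Control animals (CrT+/y) carried an intact X-linked Slc6a8, the gene of the creatine transporter. CrT-KO animals (CrT-/y) carried a constitutive deletion of its exons 5 to 7, so that levels in 1 cell type were measured in a brain in which all types carried the deletion. There were 2 libraries of each genotype, 4 in all, and the 2 libraries per genotype are the only replicates.

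Fgf1 encodes acidic fibroblast growth factor, a ligand that can bind all of the FGF receptor tyrosine kinases. It has no classical signal peptide and leaves cells by an unconventional route that uses the calcium-binding protein S100A13 and synaptotagmin 1. In the brain, FGF signalling acts on neuron survival, synapse formation and glial differentiation. Arhgap26 encodes GRAF1, a cytoplasmic protein that bends membranes through its BAR domain and switches off the small GTPases RhoA and Cdc42, which organise the actin cytoskeleton. GRAF1 also binds focal adhesion kinase and takes part in clathrin-independent endocytosis.

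The 3 records overlap on the genome (GRCm38, GENCODE annotation). Fgf1 (ENSMUSG00000036585) lies on the minus strand at chr18:38838673-38929472, covers 90800 bases and has 11 annotated transcripts. The first Arhgap26 record (ENSMUSG00000118193) lies on the plus strand at chr18:38676718-39110534, covers 433817 bases and has a single transcript, tagged as a readthrough transcript. The second (ENSMUSG00000036452) lies on the plus strand at chr18:38993145-39376284, covers 383140 bases and has 12 transcripts. They are called here the readthrough record and the main record. All of Fgf1 lies inside the readthrough record, on the opposite strand, and takes up 20.9% of its length. The Arhgap26 records share 117390 bases on the same strand, and the readthrough record also overlaps 2 noncoding genes that the tables do not list, AC133601.1 and AC110730.1. The strand setting used in counting is not given in the sources used here. Reads from Fgf1 and from the readthrough record can therefore not be fully told apart, and reads from the stretch shared by the Arhgap26 records are likewise uncertain. Values of a record are compared across cell types and libraries, not between records, because the counts carry no length correction.

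The matrices held 35694 nuclei, between 8282 and 9295 per library, with 51507483 to 65240843 unique molecular identifiers (UMIs) per library and a median of 5548 to 6700.5 UMIs per nucleus. Between 12 and 19 cell barcodes were shared by any pair of libraries. Of 34458 nuclei left after 1236 probable doublets were removed, 32982 fell in clusters that could be named from marker genes. These comprised 15709 excitatory neurons, 8480 inhibitory neurons, 5056 oligodendrocyte-like, 2232 microglia-like, 725 oligodendrocyte precursor (OPC)-like, 488 astrocyte-like and 292 endothelial and pericyte-like nuclei. Within neurons, 8 excitatory types and 5 inhibitory types were named, and 2337 nuclei of the inhibitory class were medium spiny neuron-like, a striatal type. This class also held unnamed clusters of 400 and 82 nuclei with Slc17a6, a subcortical excitatory marker, among their leading genes. Clusters of low UMI counts added 232 and 166 nuclei. Values of the inhibitory class are therefore not those of inhibitory neurons alone. All class markers were higher in their own class than in the remaining nuclei in every library. Support for types was weakest in the L5 IT-like and L6 IT-like nuclei, in each of which 4 of 8 markers met this criterion. The same markers had been used to name the clusters, so this is no independent check of the names. Slc6a8 stood in excitatory neurons at 6.81 and 5.50 CPM, its UMIs per 1000000 UMIs of the class, in the controls and at 1.55 and 1.51 CPM in the CrT-KO libraries. The remaining Slc6a8 UMIs were counted over the whole gene and so include parts outside the deletion.

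In control cortex, Fgf1 was highest in parvalbumin (PV)-like interneurons, the fast-spiking cells that inhibit the somata of excitatory neurons. Levels are given in CPM, relative to all UMIs of that cell type in that library. PV-like nuclei held 244.6 and 262.8 CPM of Fgf1, a mean of 253.7 ± 12.9 (SD, n = 2). Astrocyte-like nuclei came next with 189.4 and 197.4 CPM, followed by somatostatin (SST)-like interneurons with 162.2 and 175.8 CPM. The control values of these leading types did not overlap. The first astrocyte-like value rests on 24 UMIs, however, and its counting interval, given below, reaches the PV-like and SST-like values. The place of astrocyte-like nuclei between them is therefore not resolved. LAMP5-like interneurons had 160.3 and 125.0 CPM, VIP-like interneurons 147.9 and 116.7 CPM and L5/6 near-projecting (NP)-like neurons 124.5 and 106.4 CPM. From LAMP5-like neurons down to L5 extratelencephalic (ET)-like neurons, each pair of neighbours in the order overlapped, with oligodendrocyte-like nuclei and L6b-like neurons among them.

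Among excitatory neurons, the highest control levels of Fgf1 were in NP-like, L6b-like and L5 ET-like neurons, and the lowest in L2/3 IT-like neurons. After the NP-like type, L6b-like neurons held 94.5 and 88.0 CPM and L5 ET-like neurons, which project to brainstem and spinal cord, 80.9 and 94.3 CPM. Both control values of the L5 ET-like type lay above those of the L6 corticothalamic (CT)-like type, at 52.0 and 69.2 CPM. The L6 CT-like, L4/5 intratelencephalic (IT)-like, L6 IT-like and L5 IT-like types, between 44.9 and 69.2 CPM, could not be ordered beyond their spread. L2/3 IT-like neurons were below them at 31.0 and 36.9 CPM. Medium spiny-like neurons held the least, 25 and 19 UMIs, or 8.21 CPM (exact Poisson 95% interval 5.32 to 12.1) and 5.30 CPM (3.19 to 8.27), and overlapped microglia-like nuclei, at 7 and 4 UMIs. Such intervals cover counting error only.

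**Figure D1:**
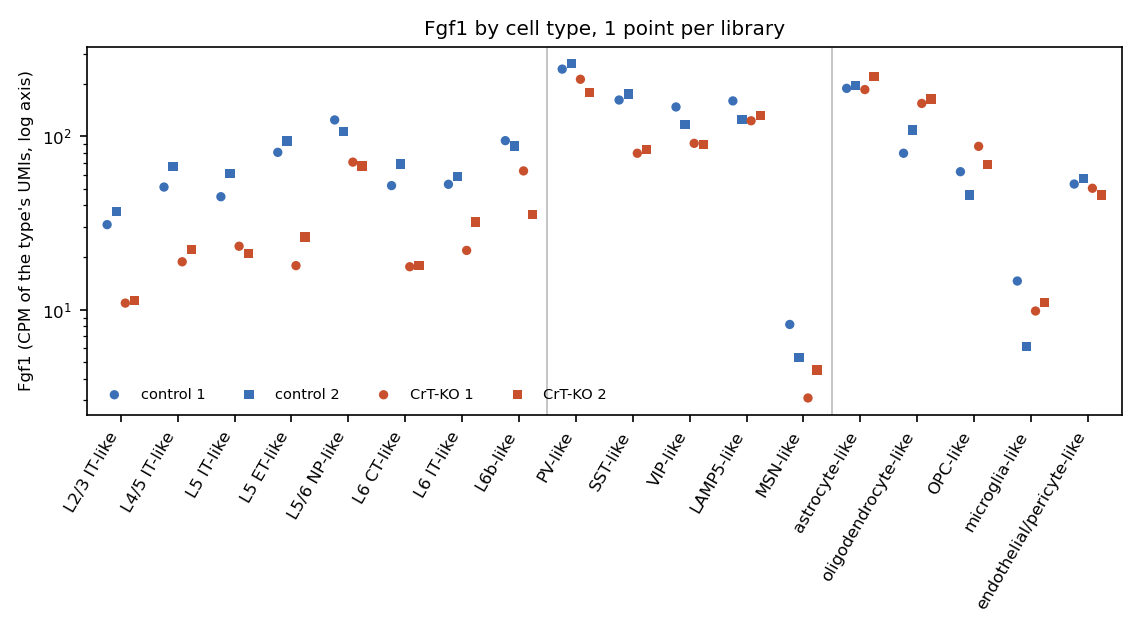
Fgf1 level (CPM, log axis) by cell type, with 1 point per library: control libraries in blue, CrT-KO libraries in red, circles for replicate 1 and squares for replicate 2. Control PV-like nuclei sit highest at 244.6 and 262.8 CPM, and the CrT-KO points lie below the control points in all 8 named excitatory types but above them in oligodendrocyte-like nuclei.

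Fgf1 was lower in CrT-KO excitatory neurons, the contrast by which it was selected. The pooled class held 46.8 and 54.6 CPM in the controls and 20.3 and 20.5 CPM in the CrT-KO libraries, from 1518, 1818, 809 and 651 UMIs. The means were 50.7 ± 5.52 and 20.4 ± 0.169 CPM (SD, n = 2), a log2 ratio of -1.31. The genotypes did not overlap, as in 29.8% of the 13306 genes with at least 10 UMIs in every library of this class, which had both CrT-KO values below both control values. In snRNA-seq of pooled classes, fewer Fgf1-expressing neurons and less Fgf1 RNA per neuron cannot be told apart from a level alone.

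Resolved by type, Fgf1 was below both controls in both CrT-KO libraries in 8 of 8 named excitatory types, with a median log2 ratio of -1.38. Over all genes, the share with this pattern lay between 15.3% and 27.0% in the 13 named neuron types. Of 10 unnamed excitatory clusters compared, 8 had this pattern, 1 was above both controls and 1 overlapped. No share over all genes was computed for unnamed clusters. L5 ET-like neurons had the lowest ratio, with 80.9 and 94.3 CPM in the controls against 18.0 and 26.2 CPM, a log2 ratio of -2.01. L6 CT-like neurons, which project to the thalamus, went from 52.0 and 69.2 CPM in controls to 17.7 and 18.1 CPM in the CrT-KO libraries, a log2 ratio of -1.75. In L2/3 IT-like neurons, 31.0 and 36.9 CPM stood against 10.9 and 11.3 CPM, a log2 ratio of -1.60. In each of these 3 types the higher CrT-KO value was below the lower control value by more than the spread within either genotype.

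L4/5 IT-like neurons had 51.0 and 66.9 CPM in the controls and 18.9 and 22.3 CPM in the CrT-KO libraries, a log2 ratio of -1.51. L5 IT-like neurons had 44.9 and 61.0 CPM against 23.2 and 21.1 CPM, a log2 ratio of -1.24. The 3 remaining types had ratios nearer to 0. L6 IT-like neurons had 52.9 and 58.9 CPM against 21.97 and 32.1 CPM, the latter from 13 and 15 UMIs, and a log2 ratio of -1.07. L6b-like neurons, remnants of the subplate, held 94.5 and 88.0 CPM against 63.2 and 35.6 CPM, a log2 ratio of -0.94 with the CrT-KO libraries far apart. NP-like neurons held 124.5 and 106.4 CPM against 71.1 and 67.4 CPM, a log2 ratio of -0.73.

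Inhibitory neurons had a smaller difference in Fgf1 than excitatory neurons. The class held 106.5 and 99.6 CPM in the controls and 73.8 and 72.9 CPM in the CrT-KO libraries, a log2 ratio of -0.49. Both CrT-KO values were below both control values, as were those of 18.9% of the 12148 genes with at least 10 UMIs in every library of this class. Markers of some other classes were also lower in these nuclei. The 12 oligodendrocyte markers summed to 116.9 and 145.4 CPM in the controls and to 110.7 and 107.8 CPM in the CrT-KO libraries, with 6 below both controls and none above. The 12 astrocyte markers summed to 627.4 and 620.9 CPM against 594.1 and 591.8 CPM, with 2 below and 1 above. The 14 microglia markers summed to 69.2 and 63.7 CPM against 57.4 and 59.9 CPM, with 3 below and none above. Other sets went another way. The 11 OPC markers summed to 1393 and 1354 CPM against 1421 and 1435 CPM, with 2 above and 4 below. The 13 endothelial and pericyte markers summed to 20.29 and 19.99 CPM against 20.26 and 24.02 CPM, with 3 above and none below. The 12 excitatory markers summed to 1585 and 1683 CPM against 1606 and 1525 CPM, with 2 above and 2 below. None of these markers was at 0, and their part in the Fgf1 value was not tested.

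The types of the inhibitory class were unlike each other. SST-like interneurons, which target dendrites, had 162.2 and 175.8 CPM against 79.9 and 84.0 CPM, a log2 ratio of -1.04. VIP-like interneurons, which inhibit other interneurons, had 147.9 and 116.7 CPM against 91.2 and 89.4 CPM, a log2 ratio of -0.54.

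PV-like interneurons, with the highest Fgf1 level in controls, had 244.6 and 262.8 CPM in the controls and 213.7 and 178.6 CPM in the CrT-KO libraries, a log2 ratio of -0.38. In LAMP5-like interneurons the genotypes overlapped, with 160.3 and 125.0 CPM against 123.1 and 132.0 CPM and a log2 ratio of -0.15. Medium spiny-like neurons held 8.21 and 5.30 CPM against 3.09 and 4.49 CPM, each CrT-KO value from 12 UMIs. Of 7 unnamed inhibitory clusters compared, 3 were below both controls and 4 overlapped, with a median log2 ratio of 0.02. Whether the ratio differs between types was not tested, because the genotype contrast selected the gene.

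Outside neurons, Fgf1 did not follow the neuronal pattern. In oligodendrocyte-like nuclei, which form myelin, it was higher in both CrT-KO libraries, at 79.9 and 108.7 CPM in the controls against 155.0 and 164.3 CPM, a log2 ratio of 0.78 from 129, 237, 261 and 288 UMIs. Of 8188 genes with at least 10 UMIs in every library of these nuclei, 20.6% had both CrT-KO values above both controls. The 2 large oligodendrocyte-like clusters gave the same order of the genotypes. The cluster led by Il33 and Tspan2 held 71.2 and 82.5 CPM against 132.0 and 150.3 CPM, and the cluster led by Anln and Apod held 98.5 and 159.6 CPM against 215.6 and 200.8 CPM.

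Markers of another class moved with this value. The 12 astrocyte markers summed to 488.9 and 517.1 CPM in control oligodendrocyte-like nuclei and to 624.9 and 599.2 CPM in CrT-KO ones, with 6 markers above both controls, 1 below and none at 0. The 12 excitatory markers summed to 567.0 and 524.5 CPM against 669.5 and 569.5 CPM, with 4 above and 1 below. The 9 inhibitory markers summed to 3913 and 3694 CPM against 3322 and 3288 CPM, although 2 were above both controls and 1 below. Their part in the Fgf1 value was not tested.

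OPC-like nuclei held 62.6 and 45.8 CPM of Fgf1 in the controls and 87.6 and 68.9 CPM in the CrT-KO libraries, a log2 ratio of 0.54 from 23 to 44 UMIs per library. Of 4531 genes with at least 10 UMIs in every library of these nuclei, 18.6% had both CrT-KO values above both controls. Summed oligodendrocyte markers in these nuclei were lower in the CrT-KO libraries, at 1169 and 1018 CPM against 440.1 and 655.8 CPM with 5 of 12 markers below both controls and none at 0, and their part was not tested. Astrocyte-like nuclei, high in Fgf1, overlapped between genotypes, at 189.4 and 197.4 CPM against 186.4 and 221.5 CPM. The first control value rests on 57 nuclei and 24 UMIs (exact Poisson 95% interval 121.4 to 281.9 CPM). Microglia-like nuclei had 4 to 7 Fgf1 UMIs per library, and endothelial and pericyte-like nuclei 4 to 11, too few to compare the genotypes.

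The readthrough record of Arhgap26 had the same order of neuron types at its upper end as Fgf1. In controls it was highest in PV-like interneurons, at 991.4 and 929.8 CPM, then in SST-like interneurons at 711.4 and 666.4 CPM and LAMP5-like interneurons at 686.7 and 597.1 CPM. NP-like neurons led the excitatory types with 515.2 and 451.8 CPM, and L2/3 IT-like neurons were lowest among them with 125.8 and 111.4 CPM. SST-like and LAMP5-like values overlapped, while at the other steps from PV-like to NP-like neurons the control values did not overlap. Oligodendrocyte-like nuclei, at 42.1 and 44.9 CPM, and medium spiny-like neurons, at 27.3 and 25.6 CPM, were at the bottom. Astrocyte-like nuclei, second for Fgf1, stood at 205.2 and 314.0 CPM in the middle of this order.

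Like Fgf1, the readthrough record was selected on its genotype values, which were lower in CrT-KO neurons. In excitatory neurons it stood at 199.7 and 190.4 CPM in the controls and at 72.1 and 90.3 CPM in the CrT-KO libraries, a log2 ratio of -1.27. In inhibitory neurons the values were 432.4 and 368.3 CPM against 252.8 and 289.5 CPM, a log2 ratio of -0.56. CrT-KO values were below both controls in 8 of 8 named excitatory types and 5 of 5 named inhibitory types. The background shares for these counts are those given above for Fgf1. Of 10 unnamed excitatory clusters compared, 8 were below both controls, 1 was above and 1 overlapped. Of 7 unnamed inhibitory clusters compared, 4 were below both controls and 3 overlapped, with log2 ratios up to 0.43.

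By type, the ratios again ran from the projection neurons to the PV-like and LAMP5-like interneurons. Among the named neuron types, L5 ET-like neurons had the lowest ratio, -1.77 on the log2 scale. Their values went from 320.4 and 302.8 CPM in controls to 71.4 and 117.4 CPM. SST-like interneurons, at 711.4 and 666.4 CPM against 265.0 and 338.8 CPM, had a log2 ratio of -1.20. PV-like interneurons, at 991.4 and 929.8 CPM against 754.5 and 803.4 CPM, had a log2 ratio of -0.30. LAMP5-like interneurons, which overlapped between genotypes for Fgf1, did not overlap for this record, at 686.7 and 597.1 CPM against 500.8 and 501.2 CPM.

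In glia the readthrough record differed from Fgf1. Oligodendrocyte-like nuclei stood at 42.1 and 44.9 CPM against 52.3 and 45.7 CPM, a log2 ratio of 0.17, and this ratio turned to -0.22 when probable doublets were kept. Microglia-like nuclei were lower in the CrT-KO libraries, with 34 and 38 UMIs in the controls and 13 and 12 in the CrT-KO libraries. In the first control, 1 nucleus held 12 of the 34 UMIs. Levels in microglia-like nuclei were 71.1 and 58.1 CPM against 21.3 and 22.1 CPM, a log2 ratio of -1.57. Of 6044 genes with at least 10 UMIs in every library of these nuclei, 17.4% had both CrT-KO values below both controls. The 9 inhibitory markers in these nuclei summed to 1650 and 1110 CPM in the controls and to 1105 and 1080 CPM in the CrT-KO libraries. Of these, 1 was above both controls and 2 were below. The 12 excitatory markers summed to 853.0 and 812.2 CPM against 895.2 and 822.1 CPM, with 1 above and 1 below. The part of these markers in the value was not tested.

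The main record of Arhgap26 behaved differently from the other records in level and in genotype contrast. In controls it was highest in L5 ET-like neurons, at 480.3 and 466.5 CPM, and in L6 CT-like neurons, at 465.4 and 436.9 CPM. PV-like interneurons, first for the other records, were in the eleventh place with 307.8 and 290.8 CPM. Medium spiny-like neurons, last for the other records, held 346.2 and 410.5 CPM. Among the neurons, VIP-like interneurons at 214.8 and 177.2 CPM and LAMP5-like interneurons at 201.0 and 232.2 CPM were lowest and overlapped each other, and oligodendrocyte-like nuclei lowest of all at 45.9 and 33.0 CPM.

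In excitatory neurons the genotypes overlapped for the main record, at 337.2 and 316.3 CPM in the controls and 286.4 and 348.5 CPM in the CrT-KO libraries, a log2 ratio of -0.05. Inhibitory neurons also overlapped, at 305.8 and 304.4 CPM against 292.0 and 356.9 CPM, a log2 ratio of 0.08. Log2 ratios of the 13 neuron types lay between -0.20 and 0.22. Only 1 of 8 excitatory types had both CrT-KO values below both controls, and 1 of 5 inhibitory types, the VIP-like, had both above, with 214.8 and 177.2 CPM against 215.1 and 240.1 CPM. Over all genes, 15.3% to 27.0% were below both controls in the neuron types, and 19.0% were above both in the VIP-like type. Astrocyte-like nuclei were lower, at 347.3 and 325.3 CPM against 210.4 and 314.6 CPM, and oligodendrocyte-like nuclei higher, at 45.9 and 33.0 CPM against 55.2 and 60.5 CPM. Of genes with at least 10 UMIs in every library, 19.9% were below both controls in astrocyte-like nuclei and 20.6% above both in oligodendrocyte-like nuclei. In astrocyte-like nuclei the 12 oligodendrocyte markers summed to 284.1 and 237.8 CPM in the controls and to 138.3 and 134.8 CPM in the CrT-KO libraries, with 4 below both controls, 1 above and none at 0. Their part in the value was not tested.

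**Figure D2:**
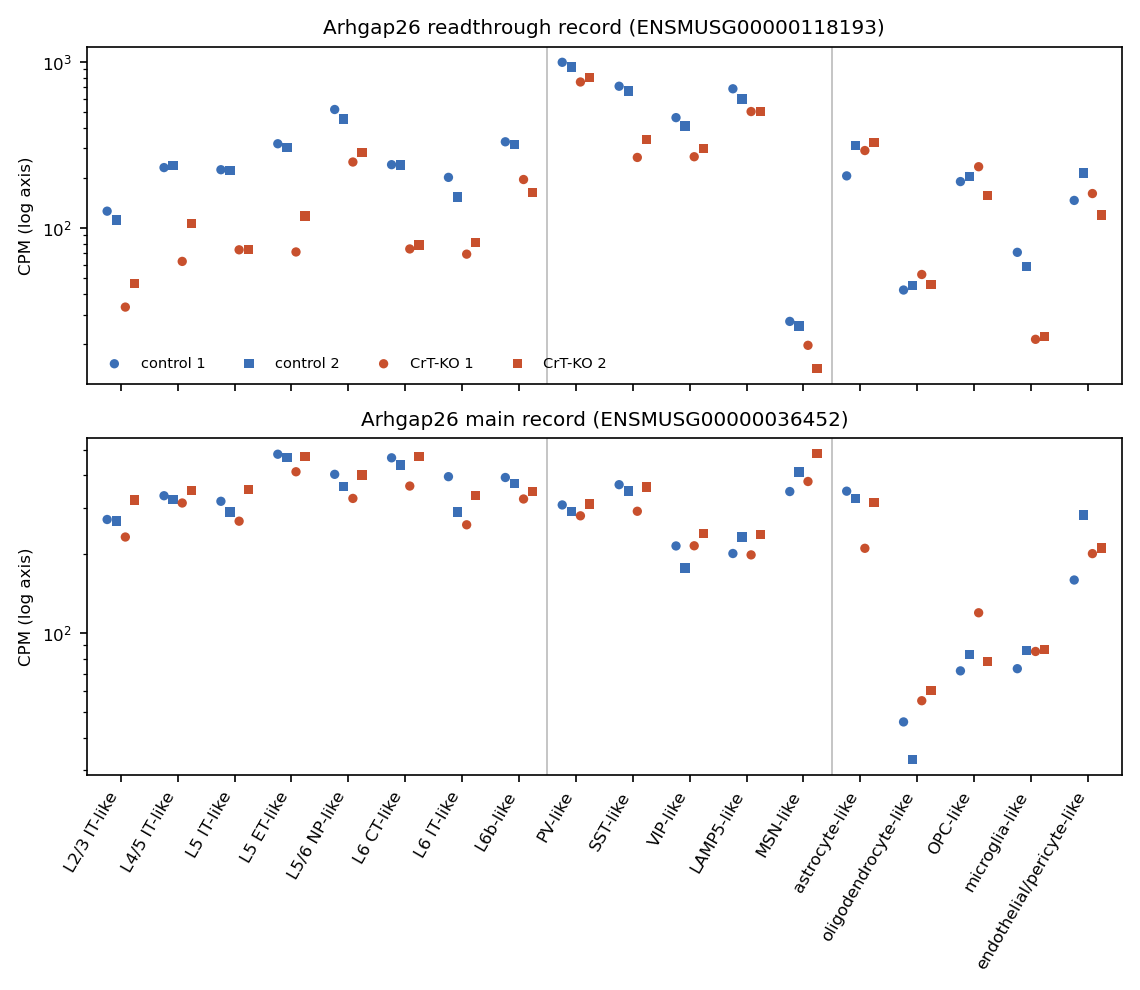
Levels of the Arhgap26 records (CPM, log axis) by cell type, the readthrough record and the main record in separate panels, with 1 point per library, controls in blue and CrT-KO in red. CrT-KO points of the readthrough record lie below the control points in all 13 named neuron types, whereas those of the main record overlap in most.

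**Figure D3:**
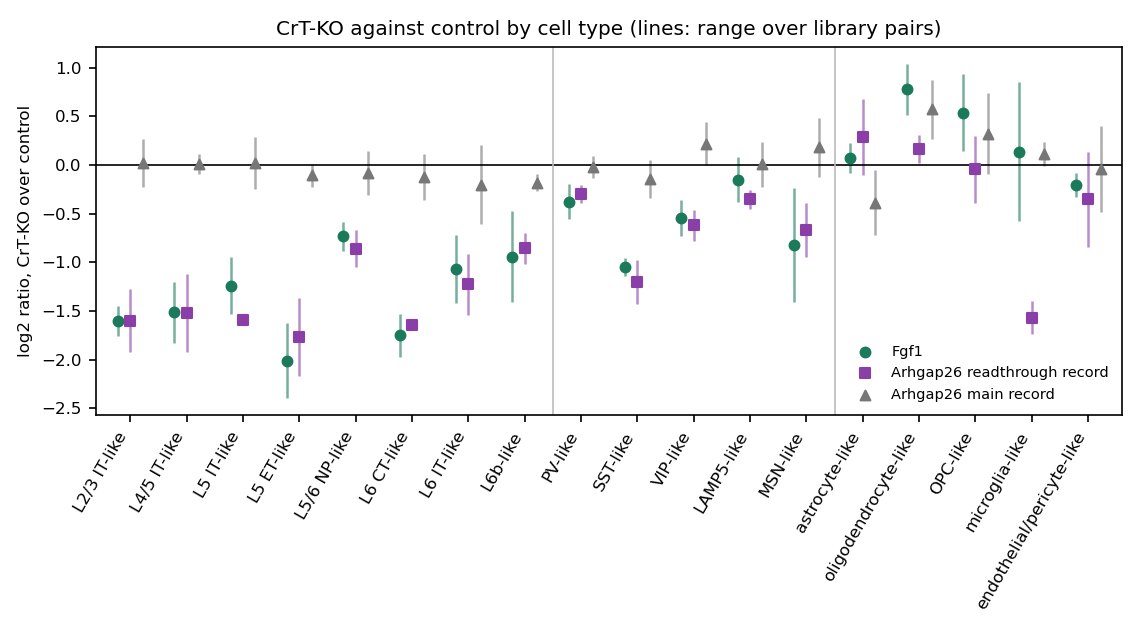
Log2 ratio of CrT-KO over control for the 3 records by cell type, each the difference of mean log2 CPM over 2 libraries per genotype, with lines over the range of the library pairs. Fgf1 and the readthrough record run together through the neuron types, down to -2.01 and -1.77 in L5 ET-like neurons, and part in oligodendrocyte-like nuclei, while the main record stays near 0 in neurons.

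Fgf1 and the readthrough record stood in a narrow range of proportions to each other over neuron types. Fgf1 UMIs per readthrough UMI lay between 0.201 and 0.395 in the 48 values of 12 neuron types in 4 libraries, medium spiny-like neurons left out. The median was 0.264 in the controls and 0.273 in the CrT-KO libraries. Over the same types, control levels of Fgf1 spanned 7.48-fold, those of the readthrough record 8.10-fold and those of the main record 2.42-fold. These ratios are not corrected for length, and the records share a stretch of genome, so they describe counted UMIs and not molar amounts.

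Glia had other proportions. Oligodendrocyte-like nuclei had 1.90 and 2.42 Fgf1 UMIs per readthrough UMI in the controls and 2.97 and 3.60 in the CrT-KO libraries. Astrocyte-like nuclei had 0.923 and 0.629 against 0.639 and 0.677. OPC-like nuclei, at 0.330, 0.225, 0.376 and 0.442, were near the neuronal range.

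The proportion of the Arhgap26 records, by contrast, varied with type and genotype. Excitatory neurons had 0.592 and 0.602 readthrough UMIs per main UMI in the controls and 0.252 and 0.259 in the CrT-KO libraries. Inhibitory neurons had 1.41 and 1.21 against 0.866 and 0.811. PV-like interneurons had 3.22 and 3.20 against 2.70 and 2.59, and SST-like interneurons 1.94 and 1.92 against 0.910 and 0.939.

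**Figure D4:**
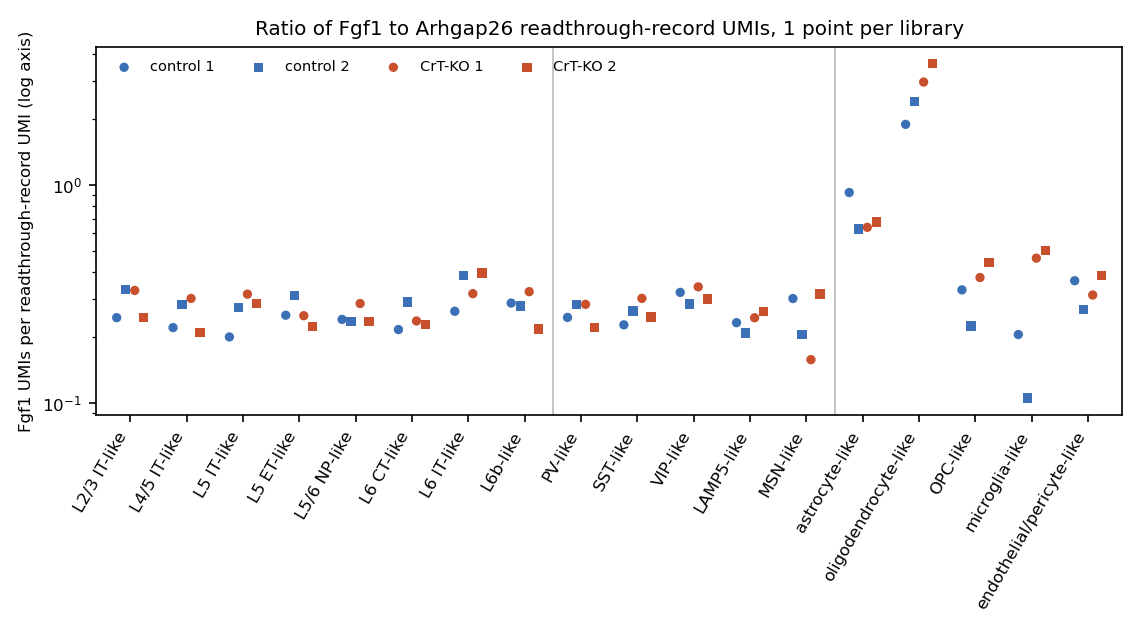
Fgf1 UMIs per UMI of the readthrough Arhgap26 record by cell type (log axis), 1 point per library, controls in blue and CrT-KO in red. The neuron types other than medium spiny-like lie between 0.201 and 0.395 in both genotypes, and oligodendrocyte-like nuclei between 1.90 and 3.60.

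Where the transcripts were found shifted with these levels. Excitatory neurons held 48.9% of all Fgf1 UMIs in the controls and 34.4% in the CrT-KO libraries, inhibitory neurons 38.4% and 44.3%, and oligodendrocyte-like nuclei 5.37% and 12.95%. For the readthrough record, excitatory neurons held 51.6% and 41.8%. For the main record they held 67.2% and 67.5%. These shares also depend on how many nuclei of each class a library held.

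Fgf1 was found in fewer excitatory nuclei of the CrT-KO libraries. At least 1 Fgf1 UMI was present in 25.9% and 30.0% of excitatory nuclei in the controls and in 13.6% and 12.7% in the CrT-KO libraries. After every nucleus was thinned to 1000 UMIs, which left out 11 shallower nuclei, the shares were 4.41% and 5.12% against 2.07% and 2.08%. Microglia-like nuclei, a class with very little Fgf1, gave 0.857% and 0.661% against 1.04% and 1.03% unthinned, at median depths of 880 to 1032 UMIs against 7271 to 8831 UMIs in excitatory nuclei. The thinned shares in microglia-like nuclei were 0.546% and 0.812% against 0.870% and 1.47%, after 1194 of the 2232 nuclei were left out as shallower, so that this background rests on few positive nuclei. Excitatory shares stood above this background in all libraries.

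PV-like nuclei were often positive, 73.5% and 79.4% in the controls and 65.9% and 59.7% in the CrT-KO libraries, or 20.8% and 22.2% against 17.9% and 15.7% after thinning. In oligodendrocyte-like nuclei the unthinned shares were 9.81% and 13.1% against 18.4% and 17.3%. Thinned, they were 7.02% and 9.38% against 13.01% and 14.4%, with 138 to 375 shallower nuclei per library left out. The order of the genotypes was thus the same at equal depth.

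Positive excitatory nuclei also held fewer Fgf1 UMIs each, a mean of 1.58 and 1.62 in the controls against 1.41 and 1.28 in the CrT-KO libraries. Among Fgf1-positive excitatory nuclei, the readthrough record was present in 88.5% and 85.1% in the controls and 70.6% and 68.6% in the CrT-KO libraries. Over all excitatory nuclei these shares were 57.6% and 57.2% against 32.1% and 34.8%. In Fgf1-positive oligodendrocyte-like nuclei the readthrough record was present in 10.9% and 13.5% against 14.3% and 8.94%. These shares were not thinned.

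Over the 18 named types of control cortex, the pattern of Fgf1 was most like that of Acss2, which makes acetyl-CoA from acetate, with a Pearson correlation of log2(CPM + 1) of 0.85 among 13826 genes. It was followed by 3110021N24Rik and the readthrough record of Arhgap26, both at 0.82, by Slc25a12, a mitochondrial aspartate and glutamate carrier, at 0.79, and by Cacng7, which encodes an AMPA receptor auxiliary subunit, at 0.77. The readthrough record was most like Adcy8, a calcium-stimulated adenylyl cyclase, at 0.88, then Gfod2 at 0.87, the kinases Mast2 at 0.86 and Mast1 at 0.84, and Astn2 at 0.83, and Fgf1 was in the ninth place. The main record was most like Fam227a at 0.94, Dclk1 at 0.92, Gnaz and Trim37 at 0.90, and Snph at 0.90. Its correlation was 0.17 with Fgf1 and 0.44 with the readthrough record. The types share libraries and differ in depth, so these values describe likeness only.

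The other genes of FGF signalling and of the GRAF family were tested between genotypes in 3 populations by edgeR's quasi-likelihood test on UMI sums per library, with Benjamini-Hochberg adjustment over all genes and a threshold of 0.1. None of the 88 listed genes was called in excitatory neurons (74 tested), inhibitory neurons (69 tested) or oligodendrocyte-like nuclei (52 tested). Over all genes the shares called were 0.159% in excitatory neurons, 0.0698% in inhibitory neurons and 0.21% in oligodendrocyte-like nuclei, so that a count of 0 was near the background. At an unadjusted p under 0.05 there were 10 listed genes in excitatory neurons, 2 in inhibitory neurons and 4 in oligodendrocyte-like nuclei, beside 8.65%, 5.05% and 6.67% of all genes tested. DESeq2 called 1 listed gene in excitatory neurons, Fgf13, and none in the other populations. The median log2 fold change of the lists was 0.03, 0.02 and 0.03, beside -0.01, -0.01 and 0.00 over all genes tested.

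Of the receptors through which FGF1 can act, Fgfr2 was higher in glia than in neurons, with a control mean of 1451 CPM in oligodendrocyte-like and 1400 CPM in astrocyte-like nuclei against 266 CPM in excitatory and 298 CPM in inhibitory neurons. Its edgeR log2 fold change was -0.09 ± 0.07 (SE) in excitatory neurons (adjusted p = 0.795) and -0.07 ± 0.11 in oligodendrocyte-like nuclei (adjusted p = 0.948). Fgfr1 had a control mean of 299 CPM in astrocyte-like nuclei, 26.0 CPM in inhibitory and 12.6 CPM in excitatory neurons, where its log2 fold change was -0.10 ± 0.11 (adjusted p = 0.849). Fgfr3, also a marker used to name astrocytes, was near 0 in excitatory neurons at 0.366 CPM. The decoy-like receptor Fgfrl1 was at 0.240 to 0.651 CPM there, with a log2 fold change of 0.98 ± 0.39 and an adjusted p of 0.508.

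Among the ligands, Fgf9, a neuron-derived factor, stood at 11.1 and 10.8 CPM in control and 11.1 and 10.8 CPM in CrT-KO excitatory neurons, with an adjusted p of 0.933. Fgf10 stood at 8.20 and 10.8 CPM against 7.88 and 8.97 CPM (adjusted p = 0.858). None of the 9 ligands tested in excitatory neurons or the 7 tested in inhibitory neurons was called, and the median log2 fold changes were 0.05 and 0.12. Fgf7, singled out after its values were seen, stood in inhibitory neurons at 1.52 and 1.40 CPM in the controls and 2.77 and 3.26 CPM in the CrT-KO libraries, a log2 fold change of 1.05 ± 0.32 (adjusted p = 0.744).

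The FGF homologous factors, relatives of the ligands that stay in the cell and bind voltage-gated sodium channels, had the highest median of the lists in excitatory neurons, 0.26 on the log2 scale over 4 genes. Fgf13 stood at 111.0 and 115.8 CPM in the controls and 136.7 and 141.6 CPM in the CrT-KO libraries, a log2 fold change of 0.34 ± 0.07 (adjusted p = 0.153). Fgf12 had a log2 fold change of 0.18 ± 0.06 (adjusted p = 0.434) and Fgf14 of 0.17 ± 0.06 (adjusted p = 0.468). In oligodendrocyte-like nuclei, Fgf12 and Fgf14 had log2 fold changes of 0.27 ± 0.11 (adjusted p = 0.63) and 0.31 ± 0.11 (adjusted p = 0.505). None passed the threshold.

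Feedback and target genes read the activity of FGF receptors downstream of the MAP kinase pathway. None of 14 tested in excitatory neurons was called, with a median log2 fold change of 0.00. Dusp6, a phosphatase that dampens ERK, stood at 4.32 and 3.79 CPM in the controls and 3.48 and 2.55 CPM in the CrT-KO libraries (log2 fold change -0.37 ± 0.19, adjusted p = 0.617). Spry4, an inhibitor of the pathway that also lies next to the pair on the chromosome, had a log2 fold change of 0.00 ± 0.24. The transcription factors Etv1 and Etv5 had log2 fold changes of -0.06 ± 0.08 and 0.15 ± 0.09. Fibp, an intracellular partner of FGF1, had 0.03 ± 0.15.

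Relatives of Arhgap26 in the GRAF family include Arhgap10 and Arhgap42, which carry the same BAR and GTPase-activating domains. Arhgap10 stood at 173.9 and 164.5 CPM in control and 151.4 and 135.3 CPM in CrT-KO excitatory neurons, a log2 fold change of -0.19 ± 0.07 (adjusted p = 0.474). Arhgap42 had a log2 fold change of -0.02 ± 0.09. In control cortex, Arhgap42 was at 550 CPM in endothelial and pericyte-like nuclei and Arhgap10 at 437 CPM in medium spiny-like neurons. The GTPases that GRAF1 acts on, Rhoa and Cdc42, had log2 fold changes of 0.05 ± 0.09 and 0.04 ± 0.07 in excitatory neurons, and Ptk2, which encodes focal adhesion kinase, of -0.06 ± 0.09.

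Of the 9 other coding genes within 500000 bases of the pair, 7 were tested in neurons and none was called. In excitatory neurons, Nr3c1, the glucocorticoid receptor gene 34261 bases beyond the main record, stood at 169.5 and 168.0 CPM in the controls and 148.1 and 174.3 CPM in the CrT-KO libraries, a log2 fold change of -0.02 ± 0.09. Ndfip1, an adaptor of ubiquitin ligases, had 0.20 ± 0.07 (adjusted p = 0.478). Pcdh1, Dele1, Rnf14 and Gnpda1 had log2 fold changes between -0.07 and 0.12 with adjusted p from 0.809 to 0.954. The median over the neighbours was 0.00 in excitatory neurons, 0.09 in inhibitory neurons and 0.03 in oligodendrocyte-like nuclei.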

How the data were processed

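Single-nucleus libraries of the right cerebral cortex of 2 control and 2 CrT-KO mice, grouped by the genotype in the labels, were analysed from the deposited matrices of UMI counts per gene and nucleus, which hold raw counts that the authors made before any normalization. The submitters' processing notes name Cell Ranger 3.1.0, Seurat 3.1.4 and the build GRCm38 (mm10). The methods name Ensembl release 99. The members and gene lists were chosen with earlier results of these data known.

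Nuclei were clustered anew with scanpy 1.11.5, without the 3 member records, since no deposited annotation was used (3000 variable genes, 30 components, 20 neighbours, Leiden resolution 1.0, alternative 0.6). Doublets were marked per library (2.91% to 4.17% of nuclei) and removed. A cluster was given the class of the best marker score if at least 3 of its markers were found in 10% of the nuclei and the 10 leading genes held no more markers of any other class than of its own. Many class clusters, the astrocyte-like one included, had no own marker among those 10 genes. A type also needed a score of at least 0.65 and an own marker among them. Names rebuilt in this way can differ from those of the study. Of the unnamed nuclei, 1360 were led by Galnt14 and Bmpr1b and 116 by Nos1 and Tacr1.

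UMIs were summed per library and type and given as CPM. Log2 ratios are differences of mean log2 CPM. The p-values come from edgeR 4.0.16 (filterByExpr, minimum count 10, TMM), fitted on all genes of a population (13861, 12891 and 9041 genes). With 2 animals per genotype, they set the genotype difference against a variability between libraries that edgeR moderates over all genes. On simulated counts of excitatory neurons over 13861 genes, 176 of 200 genes changed 2-fold were recovered. Of the 190 genes called there, 14 were false. The simulation took the variability of each gene from a trend over all genes. It covered neither the other populations nor changes under 2-fold. The tests were repeated with DESeq2 1.42.0, without the filter, at a threshold of 0.05, with a block for the replicate number and with single libraries removed. Levels and ratios were repeated with TMM scaling, doublets kept, nuclei of at least 1000 UMIs, equally weighted types and other type names. Coordinates were matched by gene identifier to the annotation for 99.5% of records. Genes named in the text are the members, a set list of FGF and GRAF genes, tested neighbours, genes called in any population, and for likeness the 5 most correlated genes with at least 20 UMIs in each control library. Listed genes that an alternative called, and cluster names, were chosen after their values were seen. The values of 1 listed gene are not reported here.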

Additional observations from a re-analysis of the deposited data

Results flagged for a closer look

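These values stood out because both CrT-KO libraries lay on one side of both controls in some cell classes and on the other side in others. The differences between classes were not tested, since the genotype contrast selected the genes. Such separations were common over all genes with at least 10 UMIs in every library. Both CrT-KO values were above both controls in 18.6% of genes in OPC-like and 20.6% in oligodendrocyte-like nuclei. In astrocyte-like nuclei, 19.9% of genes were below both controls. For Fgf1, the log2 ratio was -1.31 in excitatory and -0.49 in inhibitory neurons but 0.78 in oligodendrocyte-like and 0.54 in OPC-like nuclei. Within the excitatory class, an unnamed cluster of 201 nuclei led by Fermt1 and Angpt1 went the other way from the named types, with 55.3 and 42.5 CPM of Fgf1 in the controls and 76.5 and 70.8 CPM in the CrT-KO libraries, a log2 ratio of 0.60 from 20, 12, 54 and 43 UMIs. For the readthrough record of Arhgap26, the log2 ratio was -1.27 in excitatory neurons, -0.56 in inhibitory neurons and -1.57 in microglia-like nuclei, and 0.17 in oligodendrocyte-like nuclei and 0.21 (0.205) in the cluster led by Fermt1 and Angpt1. For the main record it was -0.39 in astrocyte-like and 0.57 in oligodendrocyte-like nuclei.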

How the results depend on the processing

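Of 58 log2 ratios of the member records, 41 kept their sign under every alternative run. Of 469 recomputed ratios, 459 moved by less than the spread between replicates. Leaving out 1 of the 4 libraries cannot move a ratio beyond that spread, by the way the spread is computed. The 58 ratios recomputed for each library left out therefore add nothing to this count. Of 156 recomputed control levels, 11 moved by more than that spread, 10 of them with doublets kept. For Fgf1 the ratio in excitatory neurons lay between -1.42 and -1.20 and in inhibitory neurons between -0.54 and -0.44, and for the readthrough record between -1.44 and -1.11 and between -0.68 and -0.45. In SST-like interneurons the Fgf1 ratio was -0.84 with types named at resolution 0.6. With doublets kept, the readthrough ratio was -0.22 in oligodendrocyte-like and -0.99 in microglia-like nuclei, and with at least 1000 UMIs it was -1.90 in the latter. With doublets kept the Fgf1 ratio in astrocyte-like nuclei was -0.15. In LAMP5-like interneurons the Fgf1 ratio ranged from -0.33 to 0.03. The cause was not tested. Adding the cluster led by Galnt14 and Bmpr1b to the excitatory class, or leaving out low-depth clusters or medium spiny-like neurons from the inhibitory class, alternatives chosen after seeing the data, moved no ratio beyond the spread.

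The replicate numbers of the labels gave 2 pairs that share a number alone. Deviations of libraries with the same number correlated at 0.161, 0.138 and 0.12 in excitatory neurons, inhibitory neurons and oligodendrocyte-like nuclei. With the replicate block, calls over all genes went from 22, 9 and 19 to 263, 53 and 233, and with DESeq2 to 64, 6 and 1. Among the listed genes, the replicate block called 2 in excitatory neurons (Fgf13 and Srgap2), 0 in inhibitory neurons and 3 in oligodendrocyte-like nuclei (Arhgap44, Fgf12 and Fgf14), and DESeq2 called 1 in excitatory neurons (Fgf13). The blocked log2 fold changes of Fgf1 were -1.26, -0.47 and 0.74 in the 3 populations. The other 24 of 27 alternatives for the listed genes, each library left out included, gave a count of 0. Few counts limit Fgf1 in microglia-like, endothelial and medium spiny-like nuclei, with at most 25 UMIs per library. Medium spiny-like nuclei were not shallow, with a median of 5327 UMIs per nucleus against 976 in microglia-like and 1271 in endothelial nuclei.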

Other observations

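The largest group of nuclei left without a name, 1360 nuclei led by Galnt14 and Bmpr1b, held 40.7 and 44.6 CPM of Fgf1 in the controls and 14.0 and 13.2 CPM in the CrT-KO libraries, a log2 ratio of -1.65.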
